A study of Mus musculus with 5 samples.

Results

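The collagen genes are the 42 genes of the aorta count table whose symbols have the form of a collagen chain (Col, a type number, a, a chain number), out of 24309 genes in that table. The pattern matches 44 genes, and Col2a1 and Col10a1 were left out by the rule. In the 2 aorta libraries 30 of the 42 had at least 100 unique molecular identifiers (UMIs, 1 per captured mRNA molecule) and 12 had fewer. Single-cell RNA was counted with a 10x Genomics droplet kit in 5 mouse libraries, 2 from aorta and 3 from liver. By their labels, 1 aorta library is DKO and 1 is WT, and ApoE is named for each, so the control carries it too. Liver has the same pair with ApoE and a WT library for which ApoE is not named. The labels do not spell DKO out. Their protocol text speaks of liver DKO mice, names 3 mice without tying them to libraries and describes the isolation of liver cells, and the series title names liver epsins. The labels give no age, sex, diet or promoter behind a deletion.

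Collagens are the main structural proteins of the extracellular matrix. Each molecule is a triple helix of 3 α chains, which may be products of 1 gene or of several. In the artery wall, fibrils of types I and III carry tensile load in the media and adventitia, the type IV network forms the basement membrane around smooth muscle cells and under the endothelium, and type VI forms beaded filaments around cells. Type VIII is known as a short-chain collagen made by smooth muscle and endothelial cells of injured vessels. Types II, IX and XI are the classical collagens of cartilage.

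By role, 10 of the 42 genes code for fibrillar chains (types I, III, V, XI, XXIV and XXVII), 6 for the basement membrane chains of type IV and 6 for type VI. The short-chain network of type VIII has 2 genes, the fibril-associated collagens known as FACITs (types IX, XII, XIV, XVI, XIX, XX and XXII) have 9, and the multiplexins (types XV and XVIII) have 2. The other 7 are 4 transmembrane chains and Col7a1, Col26a1 and Col28a1. All 42 have an entry in the GENCODE M21 annotation of GRCm38 (mm10), the build of the deposited counts. Of these, 3 share exon bases on their own strand with another gene (Col3a1, Col7a1 and Col20a1), so reads could be divided there.

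In 3 places the type IV genes lie head to head, so that chains which assemble together start from a common stretch of DNA. Col4a1 (chr8:11198423-11312826, minus strand) and Col4a2 (chr8:11312805-11449287, plus strand) overlap at their first bases. Col4a4 (chr1:82448423-82586849, minus strand) and Col4a3 (chr1:82586921-82722059, plus strand) are 71 bases apart. Col4a6 (chrX:141165403-141474076, minus strand) and Col4a5 (chrX:141475385-141689234, plus strand) are 1308 bases apart. RefSeq promoter windows on GRCm38.p6 matched 34 of the 42 members by symbol, and 8, Col1a1 among them, had none. The sequences below are shown because the members they serve are described as pairs or singly in what follows. Each is written 5′ to 3′ with every match, on either strand, to any of 3 promoter motifs in capitals. These are the CCAAT box, searched as CCAAT, the GC box, searched as GGGCGG, and the TATA box, searched as TATAAA, and no matches overlap in the sequences shown. The stretch shared by Col4a1 and Col4a2 lies at chr8:11312805-11312826 and that between Col4a4 and Col4a3 at chr1:82586850-82586920, both on the plus strand. The 250 bases before the start of Col4a6 lie at chrX:141474077-141474326 on the minus strand. Those of Col8a1 lie at chr16:57754738-57754987 on the minus strand, and those of Col3a1 at chr1:45311288-45311537 on the plus strand.
Col4a1 and Col4a2, shared: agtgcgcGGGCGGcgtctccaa
Col4a4 and Col4a3, between: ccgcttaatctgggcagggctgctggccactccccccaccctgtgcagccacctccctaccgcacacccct
Col4a6, before the start: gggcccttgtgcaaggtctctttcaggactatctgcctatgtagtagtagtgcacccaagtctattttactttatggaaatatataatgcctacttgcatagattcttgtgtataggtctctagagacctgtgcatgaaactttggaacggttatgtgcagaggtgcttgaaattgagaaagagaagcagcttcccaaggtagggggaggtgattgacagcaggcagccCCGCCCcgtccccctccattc
Col8a1, before the start: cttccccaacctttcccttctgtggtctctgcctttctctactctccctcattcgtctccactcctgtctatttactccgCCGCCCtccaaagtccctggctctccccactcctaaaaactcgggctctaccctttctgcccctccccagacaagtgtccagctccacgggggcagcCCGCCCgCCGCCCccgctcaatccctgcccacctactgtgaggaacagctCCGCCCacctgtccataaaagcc
Col3a1, before the start: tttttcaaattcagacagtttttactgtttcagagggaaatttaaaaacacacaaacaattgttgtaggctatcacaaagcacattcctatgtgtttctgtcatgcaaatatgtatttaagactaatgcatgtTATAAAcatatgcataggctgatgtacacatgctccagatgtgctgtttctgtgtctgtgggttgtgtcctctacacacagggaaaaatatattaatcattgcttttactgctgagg
Among 32851 promoter windows of all genes, cut to the 250 bases before the start, 32.7% held GGGCGG or its reverse complement, 33.8% held CCAAT and 12.4% held TATAAA. The Col8a1 window held GGGCGG 4 times and neither of the other motifs. The Col3a1 window held TATAAA once, 117 bases before the start, and neither of the others. A match is a description of these letters and not of binding.

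The 2 aorta libraries held 2800 cells each, with 6228458 UMIs in the DKO-labelled and 6383082 in the WT-labelled library, and they shared 4 cell barcodes. Cells carry the authors' subtypes, 23 in all, and 15 of them, with 50 or more cells in each library, were compared. A group is 1 library, so differences lack a replicate check and no test was possible. Levels are UMIs per 1000000 UMIs of a subtype (CPM), intervals are exact at 95% and cover counting error only. A ratio is the DKO-labelled over the WT-labelled library. Epn1 and Epn2, the epsin genes, were not lower in the library labelled DKO (ratios 1.10, 0.899 to 1.35, and 1.40, 1.24 to 1.58), and in the liver libraries they were not lower either (1.18 and 1.28). UMIs count 3′ ends and no label says which exons were removed, so this does not check the labels. Several of the authors' names go against the markers. AP (adipocyte) clusters had adipocyte markers at 1.57 to 10.9 CPM and were led by fibroblast genes such as Pi16 and Serpinf1. AP2 also held smooth muscle markers at 20179 and 20747 CPM, above its fibroblast markers (7043 and 6940 CPM). HS (haematopoietic stem cell) clusters were led by cartilage genes in HS3 (Snorc, Chad, Comp, Acan), by Mmp13, Hp and Lcn2 in HS2, and by Taco1, Fancc and Unc5c in HS1, with 32.9% and 32.4% of UMIs from genes that span over 100 kb. FB1, named fibroblast, held 8 of 8 fibroblast markers in each library, at 7838 and 12099 CPM, beside smooth muscle markers at 15388 and 6854 CPM. Its leading genes began with Col10a1, Spp1 and Thbs1 and included Bmp2 and Col1a1. The AP, HS and FB1 clusters are called by number here. The smooth muscle markers summed to 34402 and 31946 CPM in VS1, the first smooth muscle (VS) cluster. In TC1, a T cell cluster, the same markers stood at 5630 and 6647 CPM, and TC1 is given below as 1 measure of free RNA. Other clusters held more. In the macrophage cluster MP1 these markers stood at 14979 and 17685 CPM. The summed fibrillar chains were at 2523 and 2494 CPM in MP1, 944 and 1645 CPM in TC1 and 2606 and 3265 CPM in VS1. A level above that of TC1 is therefore not shown to be above free RNA.

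Clusters are ranked by level among the 15 compared ones. Col1a1 stood highest in FB1 and HS3, then in AP1 and HS2, and lower in smooth muscle. Col1a1, the α1 chain of type I, was at 6587 CPM in FB1 of the DKO-labelled library (6348 to 6833) and at 6792 CPM in that of the WT-labelled library (6613 to 6974). In HS3 it was at 6391 and 6494 CPM. In VS1 it was at 813 CPM (758 to 871) and 1190 CPM (1117 to 1266), against 276 and 403 CPM in TC1. FB1 and HS3 had overlapping intervals in the DKO-labelled library, and both stood above every other cluster compared. Col1a2, the other chain of type I, was at 3813 and 4031 CPM in FB1 and at 3720 and 4761 CPM in HS3, and AP1 of the WT-labelled library reached the FB1 level (2781 and 4031 CPM). Col3a1, the single chain of type III, was at 3085 and 2660 CPM in FB1, at 1767 and 1650 CPM in HS3, at 1626 and 1989 CPM in AP1 and at 705 and 741 CPM in VS1. In HS2 of the WT-labelled library it reached 1941 CPM, above HS3 of that library. Thinned to 1000 UMIs per cell, which left out 50 and 106 cells of FB1, 3 and 36 of VS1 and 8 and 17 of TC1, Col1a1 was seen in 88.9% and 93.2% of FB1 cells, in 57.1% and 58.6% of VS1 cells and in 35.2% and 36.4% of TC1 cells. Unthinned, these shares were 91.0% and 94.3%, 86.0% and 79.3%, and 58.1% and 49.4%, at median depths of 1669 and 1467.5 UMIs in FB1, 2365 and 2119 in VS1 and 3817 and 2130 in TC1.

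**Figure D1:**
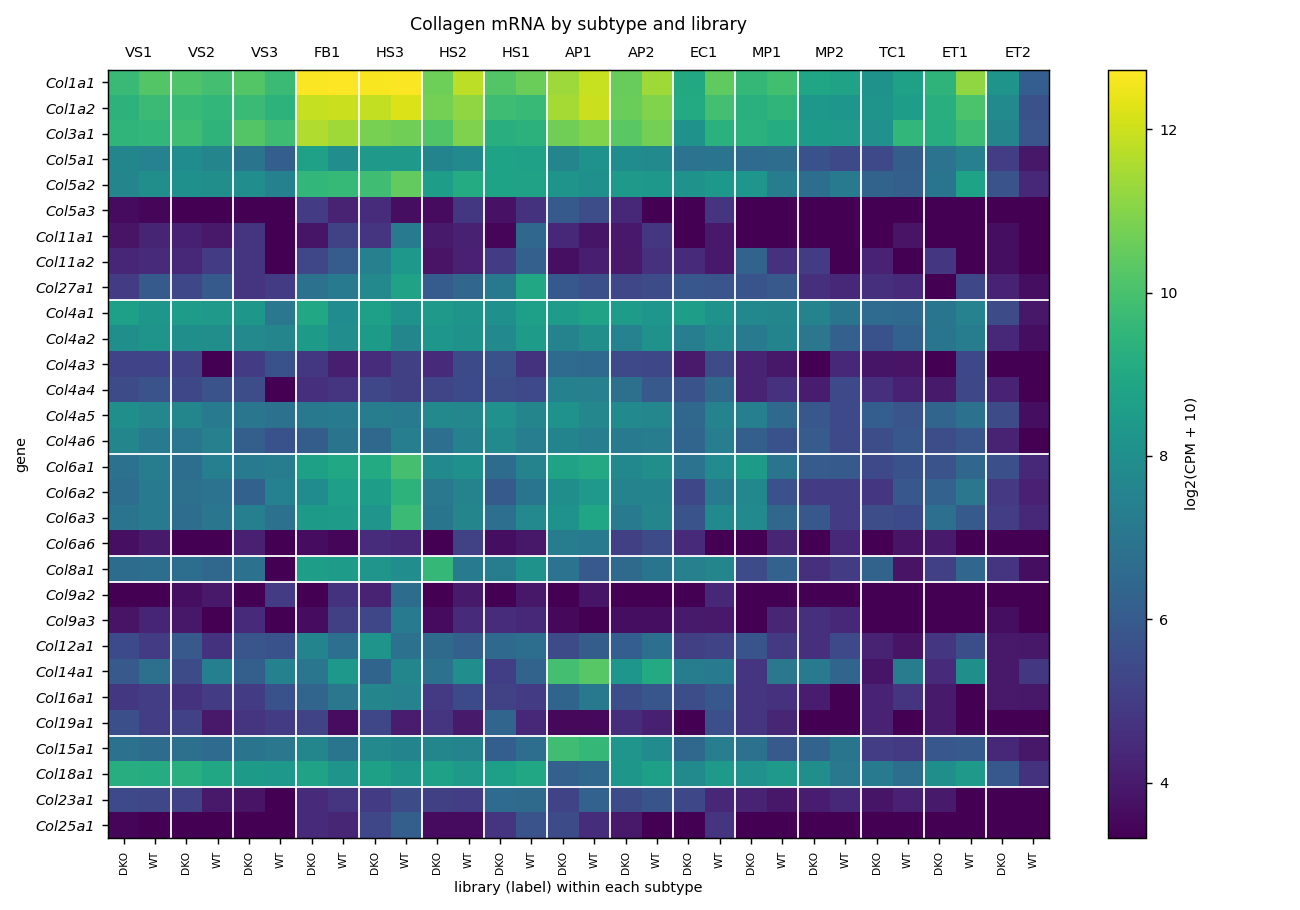
Levels of the 30 collagen genes with at least 100 aorta UMIs, as log2(CPM + 10), in 15 subtypes (column pairs) of the DKO-labelled and WT-labelled aorta library; white lines part the gene groups. Col1a1 and Col1a2 are brightest in FB1, HS3 and AP1, Col3a1 in FB1, Col14a1 and Col15a1 in AP1, and Col8a1 in HS2 of the DKO-labelled library.

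Type V chains are minor partners that nucleate type I fibrils. Col5a2, like type I, was highest in HS3 and FB1, with 900 and 1426 CPM in HS3, 740 and 773 CPM in FB1 and 183 and 243 CPM in VS1. Its next level was in HS1 of the DKO-labelled (429 CPM) and HS2 of the WT-labelled library (546 CPM), and not in AP1 as for type I. Col5a1 was highest in HS1 in both libraries (427 and 409 CPM), a cluster where Col5a2 was at 429 and 419 CPM. Among the compared clusters Col5a3 stood highest in AP1, at 53.4 and 37.3 CPM from 34 and 25 UMIs. It reached 245 CPM (134 to 412) in the 15 Schwann (SC1) cells of the DKO-labelled library, from 14 UMIs. The type XI chains Col11a1 and Col11a2, which copolymerise with type II in cartilage fibrils, and Col27a1, a fibrillar chain known from cartilage, were high in HS3 of the WT-labelled library. Col11a2 stood there at 312 CPM, Col11a1 at 134 CPM and Col27a1 at 420 CPM. Col27a1 was also high in HS1 of the WT-labelled library, at 488 CPM (394 to 599).

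In 8 of the compared clusters, type IV chains lay within a narrower range than type I and III chains. Summed over the 6 genes, they stood between 733 and 1258 CPM in VS1, VS2, FB1, HS3, HS2, HS1, AP1 and AP2, against 244 and 255 CPM in TC1. Over the same 8 clusters Col1a1, Col1a2 and Col3a1 together ran from 2194 to 13485 CPM. Outside these clusters the type IV sum was at 754 and 497 CPM in VS3 and at 723 and 923 CPM in EC1. In ET2 it was at 96.2 and 10.8 CPM, beside 756 and 165 CPM for the summed fibrillar chains. Col4a1 and Col4a2 make the heterotrimer found in nearly every basement membrane. Col4a1 was at 388 and 305 CPM in VS1, at 352 and 423 CPM in AP1 and at 87.5 and 82.3 CPM in TC1. Col4a3 and Col4a4, chains of the kidney and lung networks, were highest in AP1, where Col4a4 had 165 and 162 CPM from 105 and 109 UMIs and Col4a3 had 87.9 and 82.0 CPM from 56 and 55. The next levels of Col4a4 were 100.5 CPM in AP2 of the DKO-labelled and 85.0 CPM in EC1 of the WT-labelled library. Col4a5 and Col4a6, which assemble together in smooth muscle basement membranes, were at 247 and 195 CPM and at 191 and 134 CPM in VS1. They reached similar levels in HS1 (264 and 186, and 218 and 154 CPM) and AP1 (271 and 195, and 179 and 152 CPM).

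The head-to-head pairs differed in how closely their levels moved together. Over 30 points (15 subtypes in 2 libraries), Pearson's r of log2(CPM + 10) was 0.94 for Col4a1 with Col4a2, 0.91 for Col4a5 with Col4a6 and 0.68 for Col4a3 with Col4a4, the pair with the fewest UMIs. Points of 1 library share its depth and free RNA, so these are descriptions. Chains that are not neighbours reached like values, as with Col1a1 and Col1a2 on chromosomes 11 and 6 (0.98). Col6a1 and Col6a2, 85.2 kb apart on 1 strand, gave 0.93, and Col3a1 and Col5a2, tail to tail and 24.6 kb apart, gave 0.82.

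Type VI needs 3 different chains, and its main genes Col6a1, Col6a2 and Col6a3 had their 3 highest levels in HS3, FB1 and AP1 in each library. In HS3 of the WT-labelled library they stood at 990, 676 and 849 CPM, and in that of the DKO-labelled library at 531, 365 and 289 CPM. In VS1 they were at 106 and 146, 96.1 and 139, and 113 and 139 CPM. The alternative chains Col6a5 and Col6a6 had another place. Col6a6 was at 151 and 140 CPM in AP1 and at most 33.8 CPM in any other compared cluster, and 23 and 3 UMIs of Col6a5 fell in AP1, which held its 26 aorta UMIs entirely.

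Among the FACITs, which sit on fibril surfaces, Col14a1 marked AP1 at 954 CPM (880 to 1033) and 1238 CPM (1156 to 1325). In VS1 it was at 52.0 and 101 CPM. It was also at 148 CPM in TC1 of the WT-labelled library against 4.60 CPM in that of the DKO-labelled library, from 36 UMIs and 1. Col12a1, found in dense connective tissue, was highest in HS3, at 285 and 106 CPM, followed by FB1. Col16a1 stood highest of the compared clusters in HS3 at 183 and 172.5 CPM, and it was at 280 CPM (160 to 455, 16 UMIs) in SC1 of the DKO-labelled library. Col9a2 and Col9a3, which decorate cartilage fibrils, were highest in HS3 in both libraries, Col9a3 at 29.7 and 133 CPM and Col9a2 at 8.49 and 91.0 CPM. Col19a1 was a low gene, with 73.7 CPM in HS1 of the DKO-labelled library as its highest level in a compared cluster, against 10.6 CPM there in the WT-labelled library (57 and 2 UMIs).

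The multiplexins, basement membrane proteoglycans, parted between clusters. Col15a1 was at 913 and 760 CPM in AP1 and at 103 and 90.1 CPM in VS1. Col18a1, whose C-terminal fragment is endostatin, showed the reverse, with 567 CPM (522 to 616) and 552 CPM (503 to 605) in VS1 and 64.3 and 79.0 CPM in AP1, the latter below the 134 and 94.6 CPM of TC1. Thinned to 1000 UMIs, 46.0% and 42.4% of VS1 cells had a Col18a1 UMI, against 14.8% and 6.06% of TC1 cells. Unthinned, the shares were 71.1% and 62.4% against 32.3% and 20.5%. Of the transmembrane collagens, Col23a1 was highest in HS1 at 86.6 and 85.0 CPM, and Col25a1 was at or below 61.1 CPM in the compared clusters.

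Col8a1, the α1 chain of type VIII, was at 90.1 and 96.1 CPM in VS1 and at 366 and 346 CPM in FB1. Its highest level was in HS2 of the DKO-labelled library. Of the 12 genes under 100 UMIs, Col24a1 had 89, Col20a1 82, Col8a2 77, Col9a1 59, Col28a1 37 and Col6a5 26, and the remaining 6 had 23 or fewer (Col7a1, Col17a1, Col13a1, Col26a1, Col22a1 and Col6a4). Of the 37 Col28a1 UMIs, 20 and 10 came from the 15 and 8 Schwann cells (SC1), at 350 CPM (214 to 541) and 299 CPM (143 to 550). Col28a1 is a type VI-like chain known from peripheral nerve. Of the 30 genes with at least 100 UMIs, 19 had their highest subtype in common between the libraries.

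Ratios of 2 chains within a cluster cancel its depth, and are read here for 1 pair at a time, between clusters or between libraries. Col1a2 over Col1a1 was 0.579 (0.545 to 0.615) and 0.594 (0.568 to 0.620) in FB1, against 1.08 (1.01 to 1.16) and 1.03 (0.976 to 1.09) in AP1, so that AP1 cells had more Col1a2 for their Col1a1 in both libraries. In HS2 the libraries parted, with 1.08 (0.976 to 1.19) and 0.650 (0.602 to 0.701). Col3a1 over Col1a1 was lowest in HS3, at 0.276 and 0.254, and higher in VS1, at 0.867 and 0.623. Col5a2 over Col5a1 was 2.83 (2.16 to 3.73) and 4.43 (3.84 to 5.12) in HS3 and near 1 in HS1 (1.01 and 1.03). Col4a2 over Col4a1 lay between 0.496 and 1.03 in the clusters plotted. In VS1, FB1 and AP2 it was lower in the DKO-labelled library (0.642 against 0.933, 0.688 against 1.03, and 0.496 against 0.912). In HS3 it was higher in that library, with overlapping intervals (0.868, 0.634 to 1.19, against 0.709, 0.567 to 0.884).

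**Figure D2:**
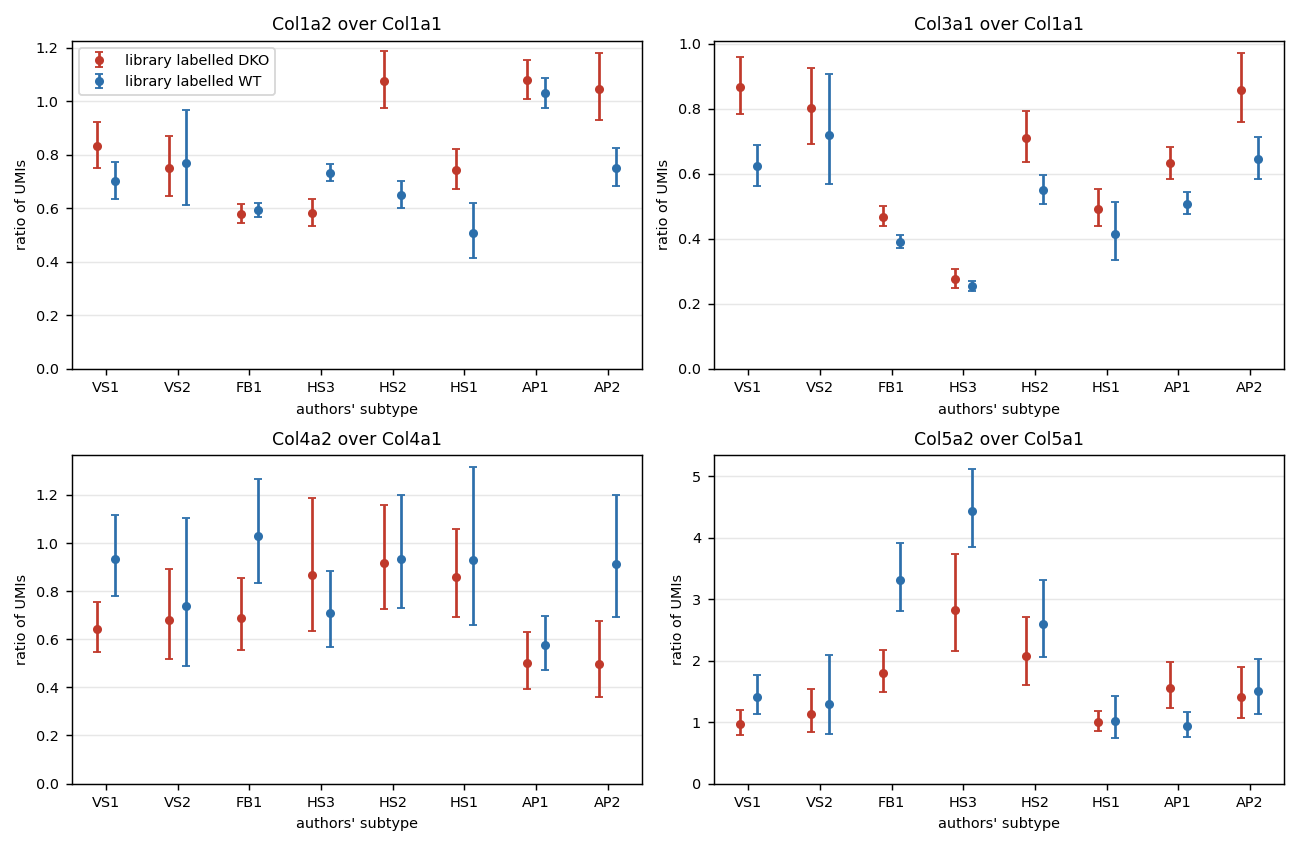
Ratio of the UMIs of 2 chains (vertical axes, linear from 0) in 8 clusters of the DKO-labelled and WT-labelled aorta library, with exact 95% intervals for counting error. Col1a2 over Col1a1 is near 0.6 in FB1 and near 1 in AP1, and in HS2 the libraries' intervals do not overlap.

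By the likeness of levels over the same 30 points, the 5 genes outside the family most like Col1a1 were Ccdc80, Thbs2, Sparc, Ckap4 and Layn (r from 0.89 to 0.91). Those most like Col4a1 were Egr1, Klf9, Cped1, Nfib and Nfia (0.93 to 0.96). For Col8a1 they were Pde1a, Slc7a2, Pdzrn3, Ltbp2 and Spry2 (0.80 to 0.87), and for Col9a1 Acan led at 0.82, followed by 9330188P03Rik, Enpp1, Sdk2 and Spry2.

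Over all aorta cells, summed collagen mRNA was lower in the DKO-labelled library, while the members were divided in direction. The 42 genes together stood at 6916 CPM in the DKO-labelled and 9948 CPM in the WT-labelled library, a ratio of 0.695 (0.687 to 0.704). Col1a1 (10429 and 19035 UMIs), Col1a2 (8175 and 13658) and Col3a1 (6136 and 8002) weigh most in this sum. Of the 30 members with at least 100 UMIs, 12 were at least 1.5-fold lower and 1 at least 1.5-fold higher. This minimum is over both libraries together, so Col9a2 (3 and 102 UMIs), 1 of the lower members, entered through the WT-labelled library. Over the 10084 genes with as many UMIs, 5.79% were lower by that fold and 5.41% higher. Among the 30 members 13 had ratios above 1 and 17 below. The median log2 ratio was -0.27 for the members and -0.01 for the 10084 genes. Lower by this rule were type I (Col1a1 0.561, Col1a2 0.613), the 3 main type VI chains (0.481 to 0.544), Col14a1 (0.550), Col16a1 (0.569) and 5 chains known from cartilage. Col5a2 (0.671) and Col25a1 (0.706) lay just outside the rule. The 6 type IV genes had ratios from 0.986 to 1.33, and Col18a1 was at 331 and 279 CPM (1.19).

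The clusters that carry most collagen were unequally filled. FB1 had 221 DKO-labelled and 402 WT-labelled cells and HS3 had 96 and 257, while HS1 had 254 and 75 and VS3 had 351 and 72. FB1 and HS3 gave 18.4% and 9.47% of the collagen UMIs of the DKO-labelled library and 22.99% and 23.7% of those of the WT-labelled library. With every subtype given the same weight in both libraries (the mean of its 2 shares of UMIs), the summed levels were 7623 and 9061 CPM, a ratio of 0.841 (0.830 to 0.852, from the Poisson error of the sums). At equal makeup 8 members were still at least 1.5-fold lower, all of them among the 12 above, and 1 was higher, against 5.13% and 3.91% of all genes. Col1a1 came to 0.773, Col1a2 to 0.799 and Col6a1 to 0.719, which left them inside the 1.5-fold bounds. Col6a2 (0.630), Col6a3 (0.637), Col14a1 (0.585), Col27a1 (0.499), Col11a2 (0.495), Col9a3 (0.328), Col11a1 (0.266) and Col9a2 (0.064) stayed past them. Without FB1 and HS3, a choice made after seeing the data, the summed ratio was 0.799. Col19a1, the member that was higher, had 150 and 46 UMIs (3.34, 2.39 to 4.76, and 2.67 at equal makeup).

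**Figure D3:**
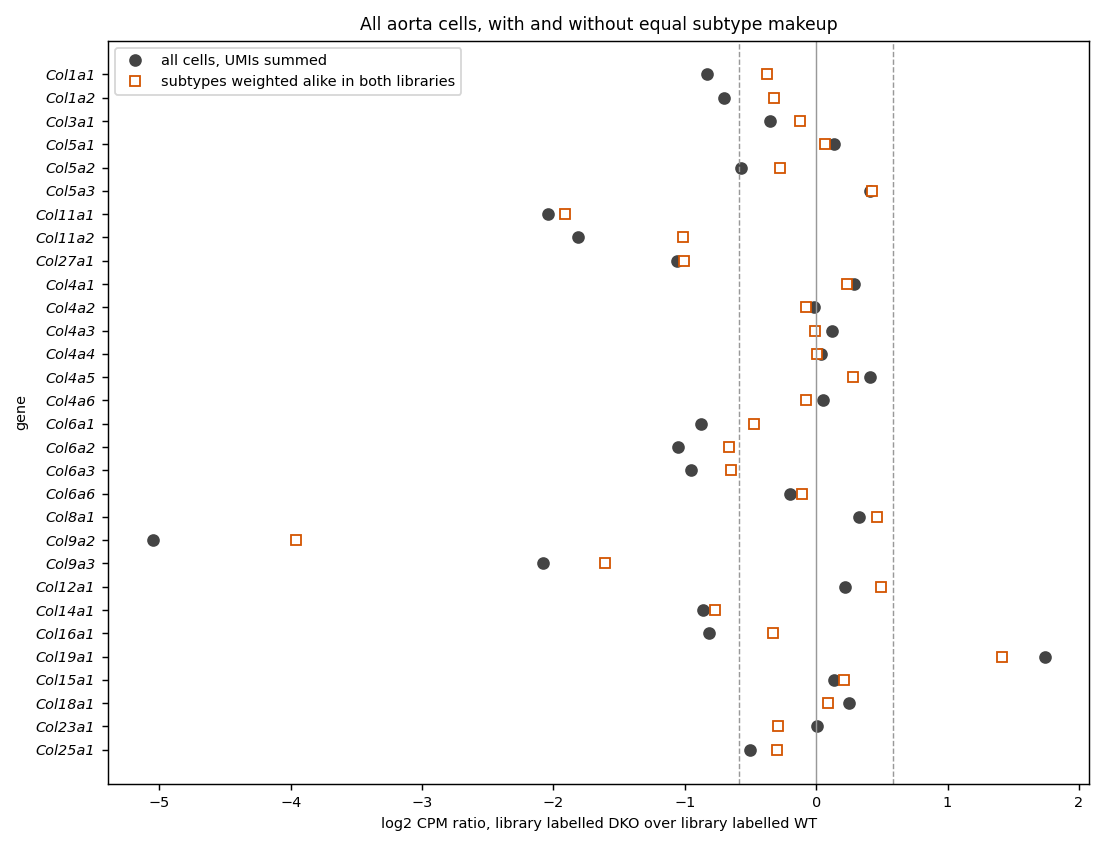
log2 ratio of CPM (DKO-labelled over WT-labelled library) for 30 collagen genes, over all aorta cells (filled circles) and with subtypes weighted alike (open squares); dashed lines mark 1.5-fold. Col1a1, Col1a2, Col6a1 and Col16a1 move inside the lines at equal makeup, while Col9a2, Col9a3, Col11a1, Col11a2, Col27a1, Col14a1, Col6a2 and Col6a3 stay outside.

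Within smooth muscle, at most 1 member passed the fold in a cluster, and the clusters differed in direction. The summed fibrillar chains had ratios of 0.798 (0.756 to 0.843) in VS1, 1.16 (1.05 to 1.28) in VS2 and 1.35 (1.12 to 1.64) in VS3. In VS1, of 16 members with at least 100 UMIs, Col14a1 was at least 1.5-fold lower (52 and 84 UMIs, 52.0 against 101 CPM, 0.516) and none was higher, where 5.24% of 3284 genes were lower and 4.57% higher. Col1a1 was at 0.683 (0.622 to 0.750) and Col3a1 at 0.951 (0.852 to 1.06). The type IV chains Col4a1, Col4a5 and Col4a6 were at 1.27, 1.27 and 1.42, with intervals above 1, and Col4a2 was at 0.876 (0.730 to 1.05). In VS2, of 8 members tested, and in VS3, of 3, none passed 1.5-fold in either direction (background 6.15% lower and 5.31% higher in VS2, 27.3% and 15.1% in VS3). All 8 in VS2 and all 3 in VS3 had ratios above 1, while in VS1 6 were above 1 and 10 below. The share of all genes above 1 is not given here. The median log2 ratio of the members tested was 0.18 in VS2, 0.39 in VS3 and -0.14 in VS1. Over all genes tested it was -0.07, -0.10 and -0.03. VS3 cells were shallow, with a median of 596 and 584.5 UMIs. Col1a1 was at 1110 and 965 CPM in VS2, so the direction seen in VS1 was not seen there (1.15, 0.963 to 1.38).

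In FB1, type I lay inside the 1.5-fold bounds while other members passed them. Col1a1 had a ratio of 0.970 (0.927 to 1.01) and Col1a2 of 0.946 (with an interval that ends just above 1). Of 19 members tested 5 were at least 1.5-fold higher and 4 lower, where 7.96% of 2174 genes were higher and 14.1% lower. Col4a1 was at 495 CPM (431 to 566) against 227 CPM (195 to 262), a ratio of 2.18 (1.78 to 2.67) from 215 and 183 UMIs in 104 and 125 cells. Thinned to 1000 UMIs, 33.9% (26.9% to 41.5%) and 17.6% (13.4% to 22.4%) of FB1 cells had a Col4a1 UMI, beside 12.96% and 18.2% of TC1 cells. Unthinned the FB1 shares were 47.1% and 31.1%, and those of TC1 cells 19.4% and 20.5%. The thinned share in FB1 of the WT-labelled library was thus no higher than that in TC1. Its unthinned share and its level of 227 CPM were above those of TC1 (20.5% and 82.3 CPM). The measures differ, and whether Col4a1 of that library stood above free RNA in FB1 was not tested. Its partner Col4a2 was at 341 and 233 CPM (1.46, 1.17 to 1.82), just inside the bound. Col5a1 (410 and 233 CPM, 1.76), Col12a1 (180 and 99.3 CPM, 1.81), Col15a1 (189 and 115 CPM, 1.64) and Col18a1 (424 and 282 CPM, 1.51) were the others that were higher. The lower ones were Col14a1 (120 and 318 CPM, 0.377), Col4a6 (57.6 and 112 CPM, 0.516), Col6a2 (230 and 391 CPM, 0.589) and Col16a1 (73.7 and 124 CPM, 0.594). Other markers moved with these in the same cluster. The summed smooth muscle markers, 8 of 8 detected in each library, were at 15388 and 6854 CPM, the fibroblast markers, 8 of 8, at 7838 and 12099 CPM, and the chondrocyte markers, 7 of 7, at 820 and 3283 CPM, and their part in the result was not tested.

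In HS3, cartilage-type and type VI chains were lower in the DKO-labelled library and Col12a1 and Col4a2 were higher. Of 22 members tested 10 were at least 1.5-fold lower and 2 higher, against 13.6% and 10.6% of 1704 genes. The minimum of 100 UMIs is over both libraries together, and HS3 held 235487 DKO-labelled and 736221 WT-labelled UMIs. Col11a1 (4 and 99 UMIs), Col9a3 (7 and 98), Col14a1 (17 and 138) and Col4a6 (19 and 111) thus entered the count through the WT-labelled library, where they were higher. Col11a1 had 4 UMIs in 96 cells against 99 in 257, 16.99 and 134 CPM (0.126, 0.034 to 0.334). Col9a3 was at 29.7 and 133 CPM (0.223), Col27a1 at 204 and 420 CPM (0.486) and Col11a2 at 161 and 312 CPM (0.517). Col9a2, with 2 and 67 UMIs below the minimum for the count, had a ratio of 0.093 (0.011 to 0.351). The 3 type VI chains were at 0.340 (Col6a3), 0.536 (Col6a1) and 0.540 (Col6a2), Col14a1 at 0.385, Col4a6 at 0.535 and Col5a2 at 0.631. Col12a1 was at 285 and 106 CPM (2.69, 1.91 to 3.77, and 1.72 as a mean of per-cell CPM) and Col4a2 at 335 and 192 CPM (1.75, 1.31 to 2.32). Col1a1 was close to level at 0.984 (0.928 to 1.04). Col1a2 was at 0.781 (0.725 to 0.842), an interval below 1 but inside the 1.5-fold bounds. The chondrocyte markers of this cluster summed to 3495 CPM, with 6 of 7 detected, and 12234 CPM, with 7 of 7. Its smooth muscle markers were at 16999 and 8442 CPM, and the part of either in the result was not tested. Over all aorta cells the chondrocyte markers were at 354 and 2238 CPM, and Col2a1, the main cartilage collagen, at 54.4 and 672 CPM.

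**Figure D4:**
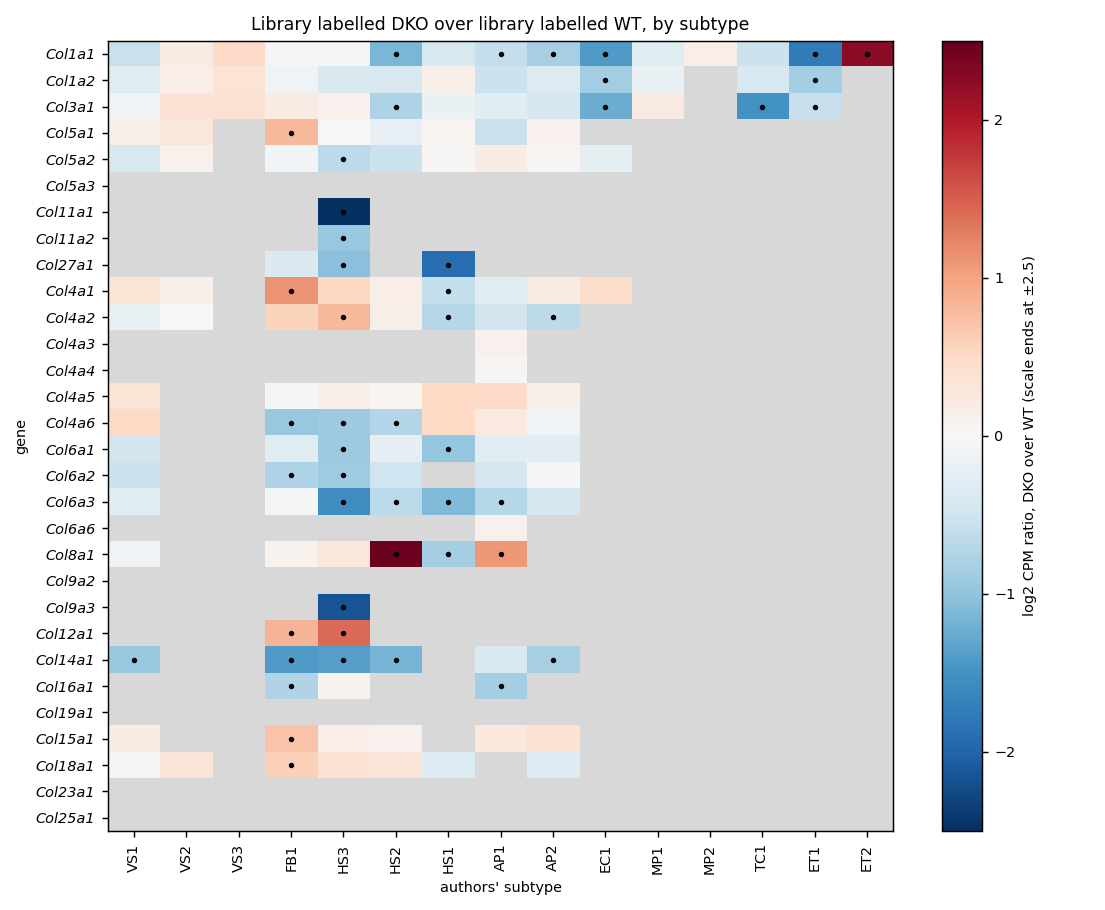
log2 ratio of CPM, DKO-labelled over WT-labelled library, for each collagen gene and subtype with at least 100 UMIs (grey: fewer); dots mark ratios past 1.5-fold and the colour scale ends at ±2.5. Col8a1 is highest in HS2, HS3 holds the most lower members, and Col14a1 is lower in each of the 6 clusters where it was tested, in 5 of them past the fold.

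Among the pairs of member and compared cluster with at least 100 UMIs, HS2 held the highest ratio. Col8a1 was at 763 CPM (687 to 844) in the DKO-labelled library and 139 CPM (108 to 177) in the WT-labelled library, a ratio of 5.49 (4.22 to 7.23). The 373 and 67 UMIs lay in 102 of 183 and 38 of 186 cells, and the 5 richest cells held 17.2% and 38.8% of them. Thinned to 1000 UMIs, 38.4% (31.2% to 46.0%) and 12.7% (8.004% to 18.7%) of HS2 cells had a Col8a1 UMI, beside 5.56% and 1.52% of TC1 cells, and unthinned 55.7% and 20.4% of HS2 cells and 16.1% and 1.20% of TC1 cells. The difference was not shared by other collagens of the cluster. Of 16 tested 1 was higher and 5 lower, against 8.51% and 6.71% of 1715 genes. Col1a1 was at 1605 CPM (1495 to 1722) against 3533 CPM (3367 to 3705), a ratio of 0.454, and the 5 richest cells held 24.2% and 20.7% of its UMIs. Col3a1 (1139 and 1941 CPM, 0.587), Col14a1 (104 and 235 CPM, 0.445), Col4a6 (98.2 and 164 CPM, 0.599) and Col6a3 (117 and 187 CPM, 0.624) were the others that were lower. The smooth muscle markers of HS2 were at 17562 and 11386 CPM and its fibroblast markers at 6814 and 8944 CPM, and their part was not tested.

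In HS1, 6 of 14 members were at least 1.5-fold lower and none higher, against 12.1% and 19.4% of 1960 genes. Col27a1 was at 131 CPM (106 to 159) and 488 CPM (394 to 599), a ratio of 0.267 (0.199 to 0.358), which was 0.506 with cells thinned to 1000 UMIs. The 5 richest cells held 51.1% of the WT-labelled UMIs, from 75 cells. The others were Col6a3 (0.468), Col6a1 (0.509), Col8a1 (0.554), Col4a2 (0.610) and Col4a1 (0.663). Of the 51 WT-labelled Col8a1 UMIs 76.5% lay in 5 cells. Col5a1 and Col5a2, the type V chains that stood out in this cluster, were close to level (1.04, 0.812 to 1.36, and 1.02, 0.798 to 1.32). Other markers moved with these in HS1. The chondrocyte markers, 7 and 6 of 7 detected, summed to 220 and 611 CPM, and the fibroblast markers, 8 and 7 of 8, to 635 and 1072.5 CPM. The erythroid markers, 5 of 5 in each library, were at 4194 and 196 CPM, the smooth muscle markers, 8 of 8, at 6712 and 5389 CPM, and their part in the result was not tested.

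AP1 and AP2, with 19 and 15 members tested, had lower type I chains in the DKO-labelled library. In AP1 Col1a1 was at 2574 and 3911 CPM (0.658, 0.618 to 0.700), Col6a3 at 278 and 457 CPM (0.607) and Col16a1 at 72.2 and 130 CPM (0.557). Col8a1 was higher, at 110 and 52.2 CPM from 70 and 35 UMIs (2.11). These 3 lower members and 1 higher one stand against 7.24% and 5.38% of 2377 genes. With cells thinned to 1000 UMIs, Col8a1 came to 0.9498, Col6a3 to 0.797 and Col16a1 to 0.919, so that these 3 no longer passed the fold. The genes that marked AP1 differed less, with Col15a1 at 1.20 (1.07 to 1.36), Col4a4 at 1.01, Col6a6 at 1.08 and Col14a1 at 0.771 (0.693 to 0.857). In AP2 Col1a1 (1499 and 2655 CPM, 0.565), Col14a1 (0.565) and Col4a2 (171 and 268 CPM, 0.638) were lower and none was higher, against 7.74% and 5.5% of 1292 genes. The fibroblast markers were at 17973 and 16157 CPM in AP1 and at 7043 and 6940 CPM in AP2. The smooth muscle markers were at 2754 and 4424 CPM in AP1 and at 20179 and 20747 CPM in AP2, and their part was not tested.

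Type I and III collagens also differed between the libraries in clusters of blood, immune and endothelial cells, which held smooth muscle markers too (9596 and 13303 CPM in EC1, 12634 and 12281 CPM in ET1, 3535 and 1085 CPM in ET2). The part of free RNA in these ratios was not tested. In the endothelial cluster EC1, 3 of 5 members were lower (Col1a1 0.372, Col3a1 0.425, Col1a2 0.550), and none higher, against 10.4% and 8.59% of 547 genes. The 5 richest of its 50 and 84 cells held 44.0% and 43.9% of the Col1a1 UMIs, and 1 WT-labelled cell held 61 of 244. Col4a1 was at 368 and 266 CPM there (1.38, 0.927 to 2.07). In the erythroid cluster ET1 all 3 tested were lower, Col1a1 at 683 and 2296 CPM (0.298), Col1a2 at 0.558 and Col3a1 just at the bound (0.667), and none higher, against 44.7% and 5.34% of 206 genes. The 5 richest of the 107 and 71 ET1 cells held 23.2% and 47.2% of the Col1a1 UMIs. With mitochondrial, haemoglobin and unstable genes out of the denominator, Col1a2 came to 0.937 and Col3a1 to 1.12 there. In ET2 the 1 member tested, Col1a1, was higher (283 and 59.5 CPM, 4.75), and none lower, against 46.8% and 10.3% of 126 genes, and its ratio was 1.15 over cells with at least 500 genes. In TC1 1 of 3 was lower (Col3a1, 258 and 736 CPM, 0.350), against 11.2% of 847 genes. In the macrophage clusters MP1, with 3 tested, and MP2, with 1, none passed 1.5-fold (background 13.3% lower and 4.67% higher in MP1, 17.6% and 19.9% in MP2). B cells (BC1, 14 and 85 cells, not compared) had 285 and 2940 CPM of Col1a1, and 0 and 1125 CPM of Col2a1. The 148 pairs of gene and cluster that were tested thus gave 39 lower and 10 higher. Over all genes, the shares by cluster ran from 5.24% (VS1) to 44.7% (ET1) lower and from 4.57% (VS1) to 46.8% (ET2) higher. The same genes recur over clusters of 1 pair of libraries, so the pooled counts are a tally only.

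**Figure D5:**
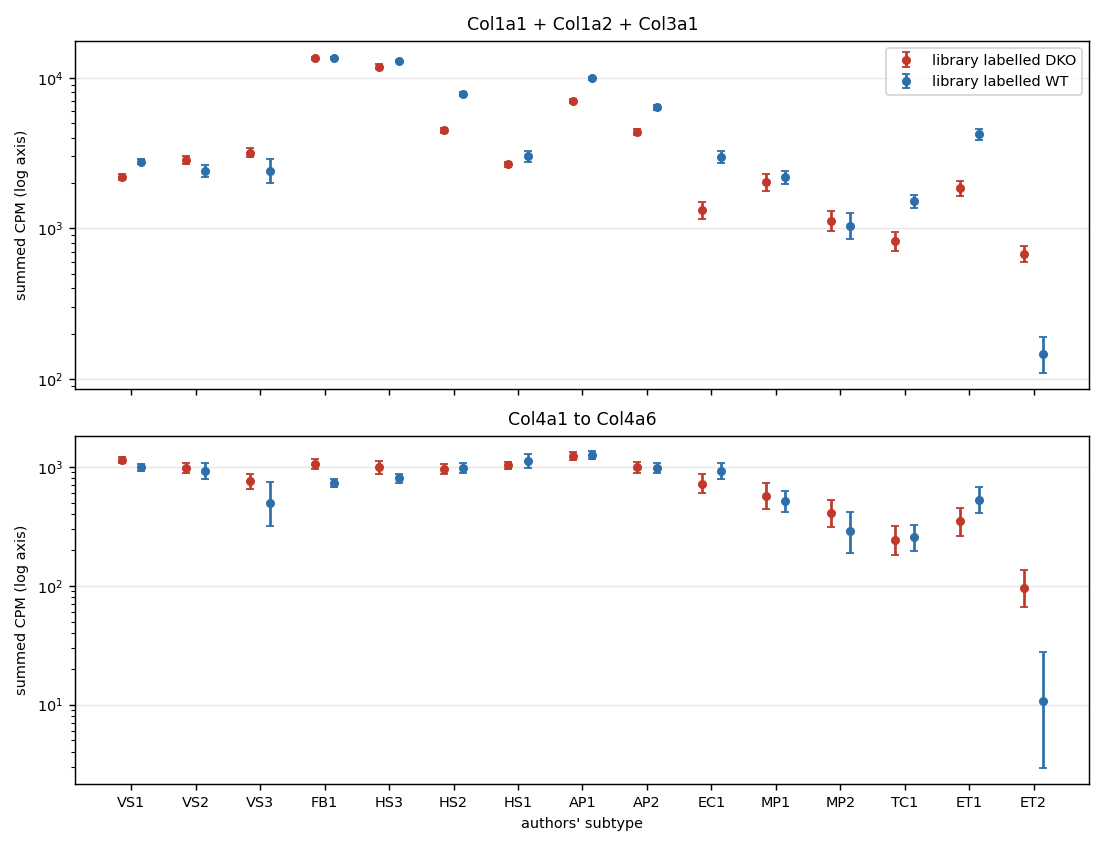
Summed CPM (log axes) of Col1a1, Col1a2 and Col3a1 (top) and of Col4a1 to Col4a6 (bottom) in 15 subtypes of the DKO-labelled and WT-labelled aorta library, with exact 95% Poisson intervals that cover counting error. The fibrillar sum is 13485 and 13483 CPM in FB1 and lower in the DKO-labelled library in HS2, AP1, AP2 and EC1. That sum is also lower there in VS1, HS3, HS1, TC1 and ET1, higher in VS2, VS3 and ET2, and close in MP1 and MP2. The type IV sum stays between 733 and 1258 CPM in VS1, VS2, FB1, HS3, HS2, HS1, AP1 and AP2.

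Of the genes that modify, fold, export and cross-link procollagen, 36 of a list of 37 were in the table and 31 had at least 100 UMIs. Over all aorta cells none was at least 1.5-fold higher and 2 were lower, against 5.41% and 5.79% of all genes tested, and their median log2 ratio was -0.02, against -0.01. The 2 were Pcolce2, an enhancer of C-propeptide cleavage (70.2 and 146 CPM, 0.482), and Sparc, a collagen-binding matrix protein (2331 and 5153 CPM, 0.452). Serpinh1, the collagen chaperone HSP47, was level (489 and 490 CPM, 0.9996, 0.951 to 1.05), and so was P4hb, the β subunit of prolyl 4-hydroxylase (0.987). In HS2, where Col8a1 was higher, the cross-linking enzyme Lox was higher (613 and 328 CPM, 1.87, 1.54 to 2.28) and Plod2, a lysyl hydroxylase, lower (143 and 232 CPM, 0.616), as was Sparc (0.583). That is 1 higher and 2 lower of 8 tested, where 8.51% and 6.71% of all genes were. In HS3 Pcolce2 (0.304), Sparc (0.445), Lox (0.528) and Plod2 (0.549) were lower among 12 tested, against 13.6% of all genes, and in FB1 Pcolce2, Pcolce, Crtap and Creb3l1 (0.594 to 0.656) among 14, against 14.1%. In VS1 none of 14 passed the fold, where 4.57% of all genes were higher and 5.24% lower. Of 9 listed receptors and uptake genes 8 were tested over all cells, and 1 was higher and 2 lower, against the same 5.41% and 5.79%. Itga1, the α1 subunit of a collagen-binding integrin, was higher over all cells (130 and 85.9 CPM, 1.51) and in FB1, HS3, HS2 and HS1 (1.76 to 2.43), where 7.96%, 10.6%, 8.51% and 19.4% of all genes were higher. Itga10 (0.639) and Itga11 (0.623) were the lower ones.

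In the liver tables Col18a1 made up most collagen UMIs. The ApoE liver table lists 31 of the 42 members, and Col1a1 and Col8a1 are not among its genes. Its classes are hepatocytes, endothelial, Kupffer, T and B cells and neutrophils, with no fibroblast or stellate class. In hepatocytes the members summed to 325 and 281 CPM, of which Col18a1 made 302 CPM (291 to 314) in the DKO-labelled and 257 CPM (247 to 268) in the WT-labelled liver library. The next gene, Col5a2, was at 4.48 and 6.01 CPM. The Col18a1 ratio was 1.17 (1.11 to 1.24), under the 1.5-fold that 2.23% of 8314 genes passed upward in hepatocytes and 2.86% downward. By the authors' hepatocyte subtypes it was 0.688 (0.559 to 0.845) in HC1 Alb hi and 1.13 to 1.28 in HC2 Alb hi, HC3 Alb hi and HC Hnf4a hi. In T cells of the liver Col18a1 was at 41.0 and 60.6 CPM. In the liver library labelled WT with no ApoE background, deposited as a separate table that lists 38 members, the authors call all 616 cells hepatocytes, and Col18a1 was at 132 CPM (116 to 150). Tables were deposited separately, and these levels are set side by side only.

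Outside hepatocytes, collagen counts were small. Endothelial cells had Col4a1 at 141 and 145 CPM (17 and 16 UMIs) and Col13a1, a transmembrane collagen with 14 UMIs in the whole aorta table, at 99.8 and 127 CPM (12 and 14 UMIs). The Kupffer class had 23 and 20 UMIs of Col14a1 in 4.32% and 6.33% of its cells. Their ratios (0.978, 0.789 and 0.727) had intervals that include 1. All collagens of the Kupffer class together were lower, at 292 and 477 CPM from 61 and 63 UMIs (0.612, 0.423 to 0.885). Its Col18a1 was at 62.2 and 136 CPM from 13 and 18 UMIs (0.457, 0.206 to 0.986).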

How the data were processed

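The authors deposited UMI counts per gene and cell, 1 table for the 2 aorta libraries and others for liver, with a table of cell names and subtypes. Cell Ranger 7.1.0 and mm10 are named in the submitters' processing notes. The sources used here do not say how cells were filtered, doublets handled or subtypes made. No doublet caller was run. From the deposited counts, UMIs were summed per subtype and library and divided by all UMIs of that subtype (CPM). Intervals are exact Poisson for a level, exact conditional binomial for a ratio of libraries or chains, and Clopper-Pearson for a share of cells, all at 95%. With 1 library per group no test was made. Members past 1.5-fold with at least 100 UMIs in a subtype of at least 50 cells per library were named, at most 8 each way by the interval bound nearest 1, with the other members past the fold named after them. Genes with like patterns are those with at least 500 UMIs and the highest Pearson correlation. Of the deposited cell tables, 27 columns each were not used. Python 3.11.15, numpy 2.4.6, scipy 1.17.1, pandas 2.3.3 and matplotlib 3.10.9 were used, and the ratio step was tested on simulated data. The members, lists and rules were chosen with earlier results of these data known. UMI depth was 6228458 and 6383082 in aorta, 10999072 and 9497896 in ApoE liver and 1883798 in the other liver library. Alternatives covered cell weighting, the denominator, scaling, thinning, cell filters, the UMI minimum and the fold.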

Additional observations from a re-analysis of the deposited data

Results flagged for a closer look

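Some members had ratios past 1.5-fold in opposite directions, or past it in one cluster and not in others, under the same pair of libraries. With 1 library per group none of these differences between clusters was tested.

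Col4a1, a basement membrane chain, had a ratio of 2.18 in FB1 and 0.663 in HS1. Its partner Col4a2 was at 1.75 in HS3 and at 0.61 in HS1 and 0.638 in AP2. Col1a1 was lower in HS2 (0.454), AP1 (0.658), AP2 (0.565), EC1 (0.372) and ET1 (0.298) and higher in ET2 (4.75), an erythroid cluster with 283 and 59.5 CPM, where it was 1.15 over cells with at least 500 genes. In EC1 and ET1, 5 cells held 43.9% and 47.2% of the WT-labelled Col1a1 UMIs. Col8a1 was higher in HS2 (5.49) and AP1 (2.11, but 0.9498 with cells thinned to 1000 UMIs) and lower in HS1 (0.554), where 5 cells held 76.5% of the WT-labelled UMIs.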

How the results depend on the processing

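No paired analysis was possible because each group has 1 library. The summed collagen ratio over all aorta cells (0.695) was 0.712 as a mean of per-cell CPM, 0.726 without mitochondrial, haemoglobin and unstable genes in the denominator, 0.675 with cells thinned to 1000 UMIs and 0.685 without the 5% deepest cells. Left out after seeing the data, HS3 brought it to 0.758, and FB1 with HS3 to 0.799. At equal makeup (0.841) the same denominator gave 0.899, division by the median ratio of all genes 0.860, thinning 0.826, leaving out the 5% deepest cells 0.825 and leaving out BC1, also chosen after seeing the data, 0.859. Every one of these values was below 1. Of the 148 pairs of gene and cluster, 10 were higher and 39 lower. Over all genes, the shares by cluster ran from 4.57% to 46.8% higher and from 5.24% to 44.7% lower. The higher count was 20 with thinning, 19 at a minimum of 50 UMIs, 4 at 300 UMIs and 5 at a fold of 2. The lower count was 15 at 300 UMIs and 14 at a fold of 2, and between 34 and 52 under the other settings. Of the 49 named ratios, between 40 and 46 stayed past the fold under each of 6 settings. The 2 that changed direction were Col3a1 in ET1 (1.12 with the smaller denominator) and Col8a1 in AP1 (0.9498 with thinning). The cause was not tested. Depth limits the 12 members under 100 UMIs, and without replicate libraries the spread between animals is unknown.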
